A study of Mus musculus with 6 samples.

Results

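The genes described here are the liver X receptors and 8 of their classical targets, 10 genes in all, chosen by symbol from the 17891 genes with a symbol in the deposited gene tables: Nr1h2, Nr1h3, Abca1, Abcg1, Pltp, Apoe, Srebf1, Mylip, Lpcat3 and Scd1. All 10 were listed in all 6 samples and all 10 passed the filter on low counts. RNA was sequenced from the myocardium of C57BL/6 mice aged 6 weeks, as 3 NS-DADm and 3 wild type (WT) samples. NS-DADm mice carry whole-body knock-in mutations in the deacetylase activating domains (DADs) of both NCOR and SMRT, while WT mice carry neither, and no treatment is given for either genotype. Because the knock-in is in every tissue, the samples do not tell an effect within heart cells from one through other organs. Whether the 3 samples of a genotype are 3 mice is not stated, so the spread behind each p-value is that between samples and may be technical.

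Liver X receptors are nuclear receptors that sense oxidised cholesterol. LXRβ, encoded by Nr1h2, is made in most tissues, and LXRα, encoded by Nr1h3, mainly in liver, fat, gut and macrophages. Both sit on DNA as partners of retinoid X receptors, at direct repeats of the letters AGGTCA spaced by 4 bases (DR4 elements). Without ligand they can hold the corepressors NCOR and SMRT, whose deacetylase activating domain switches on the histone deacetylase HDAC3, and with an oxysterol bound they release corepressors and recruit coactivators. Their targets move cholesterol out of cells (Abca1, Abcg1), remodel and carry lipoproteins (Pltp, Apoe) and limit cholesterol uptake (Mylip). Others drive the synthesis and desaturation of fatty acids (Srebf1, Scd1) or place fatty acids into membrane phospholipids (Lpcat3).

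RefSeq promoter windows on GRCm38.p6, from 250 bases before to 50 after an annotated start, were at hand for 8 of the 10 genes, with 13 windows in all, and not for Abcg1 and Scd1. A start and its build are RefSeq's, since the authors' own build is not named in the sources used here. The windows of Abca1 and of the downstream start of Srebf1 are shown because both hold the same near-DR4 run, and that of Pltp because Pltp was the member whose level changed. Capitals mark the run that reads GGTTANNNNCGGTCA on the opposite strand, all 3 windows lie on the minus strand, and each is written 5′ to 3′ along its gene.
Abca1, chr4:53159846-53160145: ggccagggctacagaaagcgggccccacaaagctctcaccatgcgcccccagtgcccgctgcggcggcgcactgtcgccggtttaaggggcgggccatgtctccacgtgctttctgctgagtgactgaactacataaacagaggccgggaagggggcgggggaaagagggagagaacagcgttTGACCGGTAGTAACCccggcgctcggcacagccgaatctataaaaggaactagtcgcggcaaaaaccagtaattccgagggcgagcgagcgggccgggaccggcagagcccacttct
Srebf1, chr11:60210422-60210721: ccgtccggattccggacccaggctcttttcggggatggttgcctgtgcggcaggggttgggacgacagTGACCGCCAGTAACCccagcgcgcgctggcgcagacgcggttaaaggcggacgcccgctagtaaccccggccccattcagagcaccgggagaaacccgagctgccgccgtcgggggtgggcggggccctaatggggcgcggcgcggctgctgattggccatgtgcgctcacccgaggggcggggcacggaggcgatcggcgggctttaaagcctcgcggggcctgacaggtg
Pltp, chr2:164857659-164857958: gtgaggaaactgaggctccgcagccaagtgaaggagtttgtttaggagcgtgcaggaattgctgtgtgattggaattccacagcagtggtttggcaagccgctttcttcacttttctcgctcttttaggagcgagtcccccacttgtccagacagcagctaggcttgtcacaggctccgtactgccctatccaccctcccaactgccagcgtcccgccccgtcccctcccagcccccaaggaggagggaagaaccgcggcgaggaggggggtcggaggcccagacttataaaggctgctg
The run spans -67 to -53 from the Abca1 start and -182 to -168 from the Srebf1 start. Its letters were written down after these windows had been read, so their rarity, 0.0122% of 32851 windows, supports nothing. The exact element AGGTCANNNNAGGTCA was in 0.0152% of all windows and in none of the 13. With up to 3 mismatches it was in 21.9% of all windows and, among the 13, in these windows of Abca1 and Srebf1. The E-box CACGTG, in 7.15% of all windows, was found in the Abca1 window at -147 to -142. The sterol regulatory element TCACNCCAC, in 1.24% of all windows, had no match in the 13, and none of the searched letters was in the Pltp window. Each motif was searched on both strands, the mismatched DR4 matches are the same sites as the variant, and a match describes letters only.

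The libraries held 12364323, 12758311 and 12262523 expected counts in NS-DADm 1, 2 and 3, against 10768308, 10183792 and 11205221 in WT 1, 2 and 3. All 10 cardiomyocyte markers were detected in every library, with a summed level of 57570.5 to 65401.2 FPKM in NS-DADm and 58134.1 to 66123.2 in WT (FPKM as deposited, fragments scaled by feature length and library size). Myl2, Actc1 and Tnni3 were the most abundant of them. NS-DADm 1, NS-DADm 3 and WT 3 stood apart from the other libraries by their atrial transcripts. The 10 atrial markers, led by Nppa, Myl4 and Myl7, summed to 4180.9, 823.8 and 7139.4 FPKM in NS-DADm 1, 2 and 3, against 735.5, 472.3 and 5151.4 in WT 1, 2 and 3, and the atrial gene Bmp10 was not listed (taken as 0) in NS-DADm 2, WT 1 and WT 2. Of the adipocyte markers, 8 (without Fabp4 and Cidea, left out after their values were seen because every library held them at like levels) summed to 52.3, 8.14 and 273.2 FPKM in NS-DADm 1, 2 and 3, against 11.1, 4.1 and 78.8 in WT 1, 2 and 3. The mean log2 level of all 10 atrial or all 10 adipocyte markers in a library served as a score, used as a covariate in alternative fits. By edgeR 0 markers of these 3 cell types were called (2 cardiomyocyte, 1 atrial and 3 adipocyte markers had an unadjusted p under 0.05), and DESeq2 called 1, the cardiomyocyte gene Ryr2, lower.

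Of the 10 genes, 1 rose in NS-DADm myocardium, 0 fell and 9 did not pass, and DESeq2 and limma made the same single call. The gene that rose was Pltp, the phospholipid transfer protein, 1.31-fold. A gene is called changed where edgeR's quasi-likelihood test, adjusted by the Benjamini-Hochberg method over 13130 tested genes, gave an adjusted p under 0.05. By that rule 3.20% of all tested genes were called (420), 1.79% of all genes higher and 1.41% lower. Leaving out NS-DADm 1, 2 or 3 lowered the number called to 181, 273 and 328, and leaving out WT 1, 2 or 3 to 149, 117 and 382. An unadjusted p under 0.05 was reached by 5 of the 10 genes and by 18.1% of all genes. The groups did not overlap, with NS-DADm higher, for 2 of the 10 genes and for 8.94% of all genes, while 0 of the 10 were lower without overlap, against 14.5% of all genes (23.4% in either direction). The median log2 fold change was 0.25 over the 10 genes and 0.34 over the 8 targets (0.20 without NS-DADm 3), against -0.00306 over all tested genes. A positive fold change was seen in 7 of the 10 genes, against 49.3% of all genes. The genes were chosen with earlier results of these data known, so these shares describe them and are no test.

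**Figure D1:**
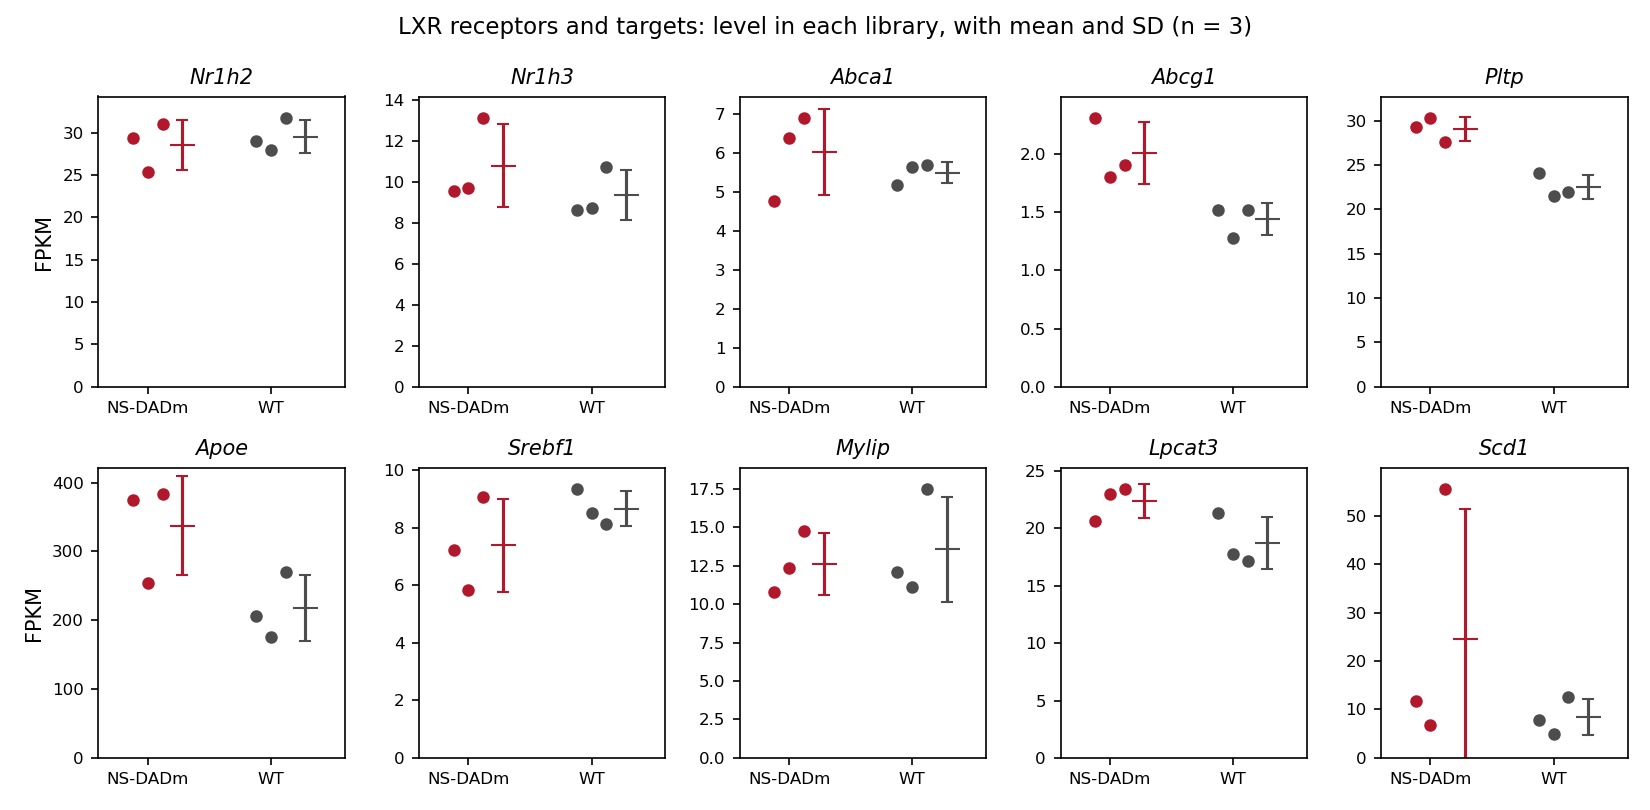
Deposited FPKM of each of the 10 genes in each library (points, NS-DADm left and WT right, replicates 1 to 3 from left to right), with the group mean and SD (n = 3) as a bar beside them; each axis begins at 0, where the lower end of the Scd1 bar for NS-DADm is cut off. Pltp and Abcg1 are the genes whose groups do not overlap, and the Scd1 mean of NS-DADm rests on the library at 55.43 FPKM.

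Neither receptor passed the test. Nr1h2 (gene ID 22260) had 29.38, 25.31 and 31.01 FPKM in NS-DADm 1, 2 and 3, against 28.95, 27.91 and 31.72 in WT 1, 2 and 3. The groups overlapped fully, with the lowest sample in NS-DADm and the highest in WT. The fitted log2 fold change was -0.03 (SE 0.09, 95% interval -0.22 to 0.17, adjusted p = 0.915, edgeR), and it was positive without NS-DADm 2 (0.04) or without WT 3 (0.02). Nr1h3 (gene ID 22259) had 9.56, 9.73 and 13.13 FPKM in NS-DADm 1, 2 and 3, against 8.61, 8.72 and 10.75 in WT 1, 2 and 3. Its highest sample in either genotype was replicate 3, and the other NS-DADm samples lay between the WT values (log2 fold change 0.22, SE 0.14, 95% interval -0.09 to 0.53, adjusted p = 0.441, edgeR). Per unit of length, Nr1h2 was the more abundant receptor in every library. The ratio of Nr1h2 to Nr1h3 FPKM was 3.07, 2.60 and 2.36 in NS-DADm 1, 2 and 3, against 3.36, 3.20 and 2.95 in WT 1, 2 and 3, and the groups overlapped. Nr1h3 overlaps the lysosomal acid phosphatase gene Acp2 in RefSeq, whose own log2 fold change was 0.00 (adjusted p = 0.997, edgeR).

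The transporters that pass cholesterol to lipoproteins outside the cell were not called. Abca1 (gene ID 11303), which loads lipid-poor apolipoprotein A-I, had 4.78, 6.39 and 6.90 FPKM in NS-DADm 1, 2 and 3, against 5.18, 5.64 and 5.68 in WT 1, 2 and 3. NS-DADm 1 was the lowest of all samples while the other NS-DADm samples were the highest (log2 fold change 0.15, SE 0.12, 95% interval -0.12 to 0.43, adjusted p = 0.555, edgeR). Abcg1 (gene ID 11307), which passes cholesterol to mature high-density lipoprotein, had 2.31, 1.80 and 1.91 FPKM in NS-DADm 1, 2 and 3, against 1.52, 1.28 and 1.52 in WT 1, 2 and 3. All NS-DADm samples were above all WT samples, and NS-DADm 1 was the highest. Its fitted log2 fold change was 0.50 (SE 0.14, 95% interval 0.18 to 0.82), with an unadjusted p of 0.00555 that missed the threshold after adjustment (adjusted p = 0.0953, edgeR). Abcg1 was the least abundant of the 10 genes, on 165, 132 and 135 counts in NS-DADm 1, 2 and 3 and 94, 75 and 98 counts in WT 1, 2 and 3, so its relative counting error is the largest of the 10. It was not called with DESeq2 (adjusted p = 0.158) or with the atrial score as a covariate (log2 fold change 0.44, adjusted p = 0.173, edgeR). The ratio of Abca1 to Abcg1 FPKM was 2.07, 3.55 and 3.61 in NS-DADm 1, 2 and 3, against 3.41, 4.41 and 3.74 in WT 1, 2 and 3, so the groups overlapped.

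Among the genes whose products work on lipoproteins, Pltp rose and Apoe did not pass. Of the genes with a positive fold change, Pltp had the smallest standard error and Apoe the highest level. Pltp (gene ID 18830), which transfers phospholipids between lipoproteins and enlarges high-density lipoprotein, had 29.27, 30.29 and 27.62 FPKM in NS-DADm 1, 2 and 3, against 24.06, 21.45 and 22.00 in WT 1, 2 and 3. The lowest NS-DADm sample was above the highest WT sample, and neither group held a sample far from the others. Pltp averaged 29.1 ± 1.3 FPKM in NS-DADm and 22.5 ± 1.4 FPKM in WT (SD, n = 3 each). This gave a log2 fold change of 0.39 (SE 0.08, 95% interval 0.22 to 0.57, adjusted p = 0.0289, edgeR). Of the 420 called genes, 345 had a log2 fold change of at least this size. With DESeq2 the adjusted p was 0.0113. The call was lost without NS-DADm 1 (adjusted p = 0.0902, edgeR), NS-DADm 2 (0.0788), WT 1 (0.0581), WT 2 (0.127) or WT 3 (0.0613), with the log2 fold change between 0.35 and 0.44. The cathepsin A gene Ctsa overlaps Pltp in RefSeq, strand use in counting is not stated, and the expected counts of Pltp were not whole, as an estimator gives where reads are divided between features. Ctsa had 53.23, 55.1 and 54.34 FPKM in NS-DADm 1, 2 and 3, against 51.64, 50.31 and 53.41 in WT 1, 2 and 3 (log2 fold change 0.09, adjusted p = 0.425, edgeR).

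Apoe (gene ID 11816) encodes apolipoprotein E, which macrophages and liver secrete to carry cholesterol. It had 374.98, 254.04 and 383.07 FPKM in NS-DADm 1, 2 and 3, against 206.15, 176.12 and 270.73 in WT 1, 2 and 3. The groups overlapped, since WT 3 was above NS-DADm 2, while every other NS-DADm sample was above every WT sample. Apoe averaged 337.4 ± 72 FPKM in NS-DADm and 217.7 ± 48 FPKM in WT (SD, n = 3 each). Its log2 fold change of 0.64 (SE 0.16, 95% interval 0.27 to 1.00) did not pass (adjusted p = 0.0701, edgeR). Apoe levels followed the atrial transcripts, and its highest samples in each genotype were NS-DADm 1, NS-DADm 3 and WT 3. Among these 3 libraries the log2 ratio of NS-DADm to WT means was 0.49, and among NS-DADm 2, WT 1 and WT 2 it was 0.41, with NS-DADm higher in both sets. With the atrial score as a covariate the log2 fold change was 0.40 and passed (adjusted p = 0.00881, edgeR), and with the 2 sets as a block, an alternative chosen after seeing the data, it was 0.46 (adjusted p = 0.00352, edgeR). It also passed without NS-DADm 2 (0.79, adjusted p = 0.0257, edgeR) and without WT 3 (0.81, adjusted p = 0.023, edgeR). Without NS-DADm 2, every NS-DADm library left had many atrial transcripts, and without WT 3 no WT library left did. These larger fold changes are therefore confounded with atrial content. Apoe did not pass without NS-DADm 1 (adjusted p = 0.213, edgeR), NS-DADm 3 (0.161), WT 1 (0.194) or WT 2 (0.243). Pltp, in the 2 sets of libraries split by atrial transcripts, had log2 ratios of 0.37 and 0.41, and Abcg1 0.47 and 0.36.

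Markers of macrophages, cells in which Apoe, Pltp, Abca1 and Abcg1 are classical LXR targets, were higher in NS-DADm as well. Of 20 tested markers, 20 were at a higher fitted level in NS-DADm, 7 were called (Csf1r, C1qa, C1qb, C1qc, Folr2, Lyve1 and Cd14), 8 with DESeq2, and all 20 were listed in every library. Fewer were called without NS-DADm 1 (3), NS-DADm 2 (4), WT 1 (4), WT 2 (2), NS-DADm 3 (6) or WT 3 (6), C1qa and C1qc among them each time. Their summed level was 480.9 to 555.6 FPKM in NS-DADm and 368.4 to 408.2 FPKM in WT, so the groups did not overlap. C1qa, a complement subunit made by tissue macrophages, had 86.75, 79.27 and 85.15 FPKM in NS-DADm 1, 2 and 3, against 62.88, 58.43 and 59.60 in WT 1, 2 and 3. Its log2 fold change of 0.50 (adjusted p = 0.00405, edgeR) stands beside 0.15 for Abca1, 0.39 for Pltp, 0.50 for Abcg1 and 0.64 for Apoe. Within NS-DADm the macrophage sum was 555.6, 480.9 and 537.9 FPKM in replicates 1, 2 and 3. Abcg1 had the same order as this sum, and Apoe was likewise lowest in NS-DADm 2. Abca1 was lowest in NS-DADm 1, and Pltp was highest in NS-DADm 2. Mertk, a phagocytic receptor on this marker list, is also an LXR target and did not pass (0.44, adjusted p = 0.132, edgeR). In bulk tissue, more cells of a type and more RNA per cell cannot be told apart, and the part of macrophage number in these levels was not tested. Hepatocyte markers, from another source of apolipoprotein E, summed to 2.79 to 10.3 FPKM in NS-DADm and 1.15 to 7.71 FPKM in WT, with Alb between 0.53 and 3.67 FPKM in NS-DADm and 0.25 and 3.86 FPKM in WT.

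**Figure D2:**
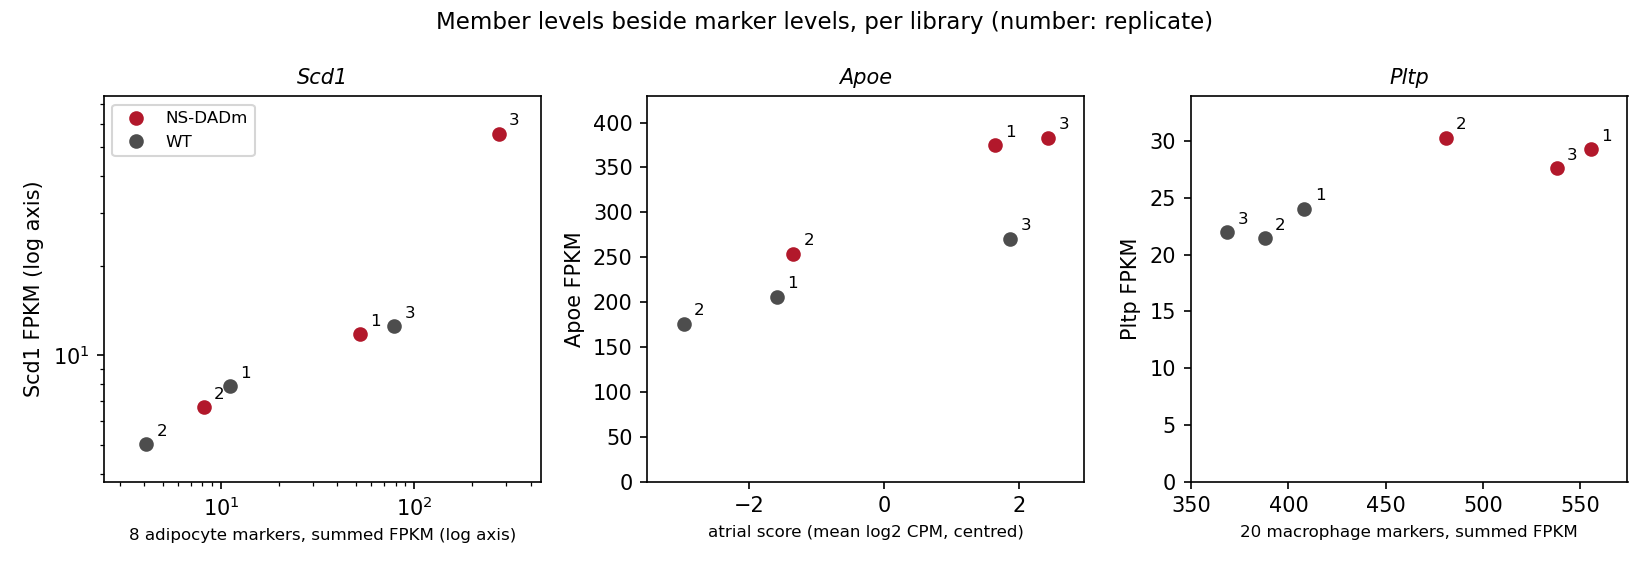
Scd1, Apoe and Pltp FPKM in each library (vertical axes) against the summed FPKM of 8 adipocyte markers (left, both axes logarithmic), an atrial score (middle, mean log2 of the depth-scaled counts of 10 markers, centred) and the summed FPKM of 20 macrophage markers (right); numbers give the replicate. The libraries have the same order in Scd1 as in the sum of these 8 adipocyte markers, but not as in the sum of all 10. Apoe is higher in the libraries with a positive atrial score. Both the Pltp level and the macrophage sum separate NS-DADm from WT. Within NS-DADm, replicate 2 has the highest Pltp and the lowest macrophage sum, and a part of macrophage number was not tested.

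The genes of fatty acid synthesis and membrane lipids had fold changes of both signs, and none passed. Srebf1 (gene ID 20787), the transcription factor gene that LXR uses to drive lipogenesis, had 7.23, 5.84 and 9.07 FPKM in NS-DADm 1, 2 and 3, against 9.33, 8.51 and 8.13 in WT 1, 2 and 3. The lowest values were NS-DADm 1 and 2, while NS-DADm 3 lay within the WT range (log2 fold change -0.21, SE 0.13, 95% interval -0.51 to 0.09, adjusted p = 0.45, edgeR). In the libraries with many atrial transcripts its log2 ratio was 0.00, and in the other libraries it was -0.61, each set with only 1 library of a genotype. The ratio of Srebf1 to its paralog Srebf2 was 1.03, 0.908 and 1.34 in NS-DADm 1, 2 and 3, against 1.43, 1.43 and 1.31 in WT 1, 2 and 3. Rai1 overlaps Srebf1 in RefSeq and had a log2 fold change of 0.17 (adjusted p = 0.321, edgeR).

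Scd1 (gene ID 20249), the stearoyl-CoA desaturase that makes monounsaturated fatty acids, had the largest fold change of the 10 genes and the least stable. It had 11.77, 6.70 and 55.43 FPKM in NS-DADm 1, 2 and 3, against 7.87, 5.01 and 12.48 in WT 1, 2 and 3. NS-DADm 3 was far above the rest, and the remaining NS-DADm samples lay within the WT range. The log2 fold change was 1.55 (SE 0.65, 95% interval 0.12 to 2.99, adjusted p = 0.24, edgeR), against 0.15 without NS-DADm 3 (adjusted p = 0.871, edgeR). NS-DADm 3 also had the highest adipocyte sum, with Adipoq at 25.40 FPKM there against 6.51 in NS-DADm 1 and 8.02 in WT 3, and Ucp1 of brown fat at 23.62 FPKM against 1.69 in NS-DADm 1, 0.68 in WT 3, while it was not listed (taken as 0) in the other libraries. The 6 libraries had the same order in Scd1 as in this sum of 8 adipocyte markers. That order depends on leaving out Fabp4 and Cidea. With all 10 markers summed, NS-DADm 2 (1218.2 FPKM) was below WT 2 (1244.1 FPKM). By the adipocyte score of all 10, NS-DADm 1 (0.72) was just above WT 3 (0.71). With the adipocyte score as a covariate, chosen after seeing the data, the log2 fold change of Scd1 was 0.30 (adjusted p = 0.617, edgeR). With the atrial score it was 0.52 (adjusted p = 0.648, edgeR). Both scores were positive in NS-DADm 1, NS-DADm 3 and WT 3 and negative in the other libraries, so fat and atrial content cannot be told apart here. Its log2 ratio was 1.43 in the libraries with many atrial transcripts and 0.06 in the others, each set with only 1 library of a genotype. Expected counts of Scd1 were not whole in 5 of the 6 libraries, and the features its reads were divided with are not recorded. Its paralogs Scd2 and Scd4 had fold changes of opposite sign, and neither was called. Scd2 had 6.02, 4.56 and 7.77 FPKM in NS-DADm 1, 2 and 3, against 4.50, 4.23 and 6.52 in WT 1, 2 and 3 (log2 fold change 0.29, adjusted p = 0.479, edgeR). Scd4, a heart-enriched desaturase, had 5.61, 2.96 and 4.91 FPKM in NS-DADm 1, 2 and 3, against 8.23, 5.16 and 6.49 in WT 1, 2 and 3 (log2 fold change -0.54, adjusted p = 0.223, edgeR).

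Lpcat3 (gene ID 14792), which places polyunsaturated fatty acids into membrane phospholipids, had 20.66, 23.01 and 23.42 FPKM in NS-DADm 1, 2 and 3, against 21.35, 17.74 and 17.13 in WT 1, 2 and 3. The groups overlapped through WT 1, which was above NS-DADm 1. A log2 fold change of 0.28 (SE 0.10, 95% interval 0.06 to 0.49) had an unadjusted p of 0.0164 and did not pass after adjustment (adjusted p = 0.161, edgeR). Within the libraries with many atrial transcripts (NS-DADm 1 and 3 against WT 3) its log2 ratio was 0.36. Within the others (NS-DADm 2 against WT 1 and 2) it was 0.24. NS-DADm was higher in both sets, but each set holds only 1 library of a genotype. Emg1 overlaps Lpcat3 in RefSeq, and its log2 fold change was 0.12 (adjusted p = 0.479, edgeR), and the expected counts of Lpcat3 were not whole. Mylip (gene ID 218203), also called IDOL, the ubiquitin ligase that marks the LDL receptor for degradation, had 10.76, 12.31 and 14.77 FPKM in NS-DADm 1, 2 and 3, against 12.08, 11.13 and 17.46 in WT 1, 2 and 3. Replicate 3 was the highest of each group and the groups overlapped. Its log2 fold change was -0.08 (SE 0.16, 95% interval -0.45 to 0.28, adjusted p = 0.843, edgeR), and it was positive without NS-DADm 1 (0.02) or WT 3 (0.14). Its log2 ratio was -0.45 in the libraries with many atrial transcripts and 0.09 in the others.

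**Figure D3:**
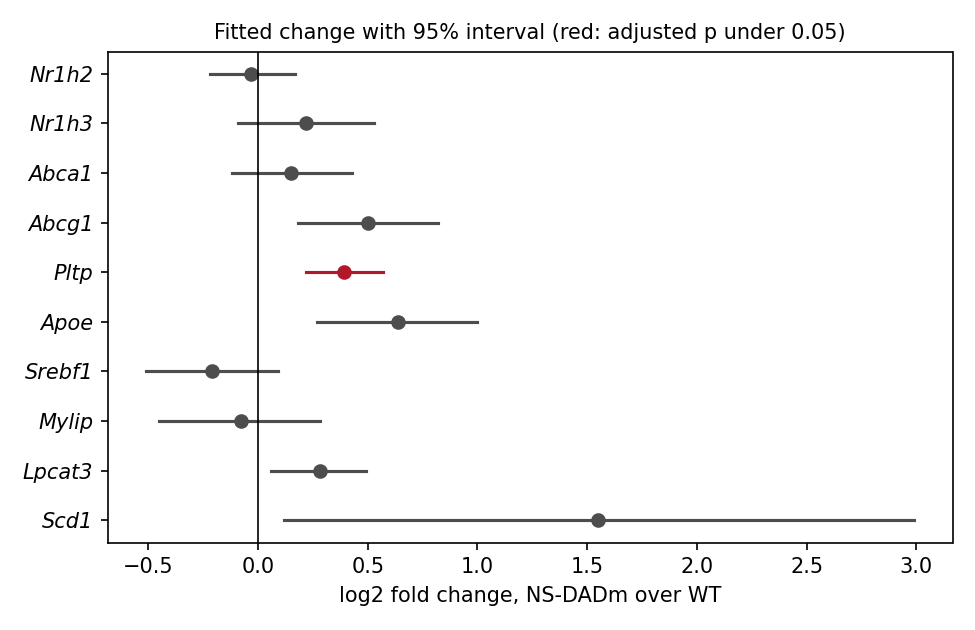
Fitted log2 fold change of each gene, NS-DADm over WT, with its 95% interval (edgeR, 6 libraries). Pltp at 0.39 is the gene whose adjusted p was under 0.05, the intervals of Abcg1, Apoe, Lpcat3 and Scd1 lie above 0 before adjustment, and that of Scd1 is the widest, from 0.12 to 2.99.

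The transcript tables showed which models the reads of each gene were assigned to. The 10 genes had 18 models, all of them tested, and 6 genes had 1 model each. Of the 18, 0 were called by edgeR, against 0.0972% of 17498 transcripts (17), with 3 at an unadjusted p under 0.05, and DESeq2 called 1, that of Pltp. Apoe reads fell mostly on models NM_001305844 and NM_009696, which the GENCODE M21 annotation places at different starts. NM_001305844 took 54.2%, 46.1% and 63.2% of Apoe counts in NS-DADm 1, 2 and 3, against 46.9%, 9.3% and 40.0% in WT 1, 2 and 3 (log2 fold change 1.35, SE 0.67, adjusted p = 0.543, edgeR). WT 2 held far less of it than any other library. NM_009696 took 42.8%, 52.1% and 36.2% in NS-DADm 1, 2 and 3, against 52.0%, 86.6% and 59.8% in WT 1, 2 and 3 (log2 fold change 0.04, SE 0.17, adjusted p = 0.971, edgeR). Reads from sequence that models share are divided by the estimator, so these shares depend on it. Nr1h3 reads fell mostly on NM_001177730, with 90.8%, 89.3% and 93.2% in NS-DADm 1, 2 and 3, against 86.9%, 80.0% and 85.3% in WT 1, 2 and 3. These shares did not overlap between the groups, and how often the shares of other models separate was not counted. The level of this model did overlap, at 8.75, 8.76 and 12.31 FPKM in NS-DADm 1, 2 and 3, against 7.56, 7.09 and 9.28 in WT 1, 2 and 3 (log2 fold change 0.34, adjusted p = 0.579, edgeR). Both Srebf1 models with values begin in the window at chr11:60220578-60220877, upstream of the window shown above with the near-DR4 run, so the Srebf1 values do not separate transcripts made from that downstream start. NM_011480 held 69.4%, 92.2% and 93.5% of Srebf1 counts in NS-DADm 1, 2 and 3, against 91.2% in WT 1 and all of them in WT 2 and 3.

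Among 19 partners and coregulators of LXR, 1 rose, 0 fell and 18 did not pass, with a median log2 fold change of 0.07. Tbl1xr1, a WD-repeat subunit of the NCOR and SMRT complex that takes part in exchanging corepressors for coactivators, had 12.06, 11.54 and 13.04 FPKM in NS-DADm 1, 2 and 3, against 7.0, 6.5 and 6.91 in WT 1, 2 and 3. The groups lay far apart relative to their spread (log2 fold change 0.87, SE 0.07, adjusted p = 0.000164, edgeR), and the call held without each sample in turn. Rxrg, the retinoid X receptor of muscle, was the most abundant partner, at 47.4 ± 2.4 FPKM in NS-DADm and 44.3 ± 4.1 FPKM in WT (SD, n = 3 each; log2 fold change 0.11, adjusted p = 0.53, edgeR). Ppargc1a, a coactivator of mitochondrial genes, had 47.02, 60.92 and 32.18 FPKM in NS-DADm 1, 2 and 3, against 23.63, 25.28 and 31.25 in WT 1, 2 and 3. Its groups did not overlap and it did not pass (log2 fold change 0.83, adjusted p = 0.0529, edgeR). Nr0b2, the small heterodimer partner, a receptor that represses other nuclear receptors, had 5.12, 3.30 and 6.24 FPKM in NS-DADm 1, 2 and 3, against 10, 9.03 and 7.92 in WT 1, 2 and 3. Every NS-DADm sample was below every WT sample, and the gene was not called by edgeR (log2 fold change -0.85, adjusted p = 0.0588) but was called lower by DESeq2 (adjusted p = 0.0128). Without NS-DADm 3 edgeR called both Ppargc1a (1.05, adjusted p = 0.0056) and Nr0b2 (-1.06, adjusted p = 0.0312).

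Of 20 further LXR targets, 15 were tested, 1 rose, 0 fell and 14 did not pass, with a median log2 fold change of 0.24. Ucp2, a mitochondrial carrier that is also a target of other nuclear receptors, had 138.84, 109.51 and 162.83 FPKM in NS-DADm 1, 2 and 3, against 65.09, 54.53 and 98.76 in WT 1, 2 and 3. The lowest NS-DADm sample was above the highest WT sample (log2 fold change 0.94, SE 0.19, adjusted p = 0.0315, edgeR). The call was lost without NS-DADm 1 (adjusted p = 0.0977, edgeR), NS-DADm 3 (0.0762), WT 1 (0.119) or WT 2 (0.117). Like Apoe, Ucp2 was highest in each genotype in the libraries with many atrial transcripts. Its log2 fold change was smaller, and still called, with the atrial score as a covariate (0.68, adjusted p = 0.0004, edgeR). With the adipocyte score, chosen after seeing the data, it was 0.71 (adjusted p = 0.0045, edgeR). Lpl, the lipase that frees fatty acids from circulating lipoproteins, was the most abundant gene of that list and did not pass (log2 fold change 0.11, adjusted p = 0.531, edgeR).

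Cholesterol synthesis and the pathway of SREBP2, which is switched on when cell cholesterol is low, had 26 of 27 genes tested, with 0 called higher, 1 called lower and a median log2 fold change of 0.09. Hsd17b7, an enzyme of late cholesterol synthesis, had 2.97, 3.54 and 3.88 FPKM in NS-DADm 1, 2 and 3, against 7.40, 5.18 and 5.51 in WT 1, 2 and 3. All NS-DADm samples were below all WT samples (log2 fold change -0.78, SE 0.14, adjusted p = 0.0198, edgeR), and the call was lost without NS-DADm 1 (adjusted p = 0.0799, edgeR) or WT 1 (0.0598). Fdft1, the squalene synthase, was among the most abundant, at 19.77, 19.41 and 19.35 FPKM in NS-DADm 1, 2 and 3, against 17.00, 17.50 and 16.20 in WT 1, 2 and 3 (log2 fold change 0.23, adjusted p = 0.0978, edgeR). Insig2, which retains SREBPs in the endoplasmic reticulum, did not pass (log2 fold change -0.08, adjusted p = 0.61, edgeR). Of 10 oxysterol enzymes, 5 were tested, 0 were called higher and 1 lower, with a median of -0.09. Cyp39a1, a hydroxylase of oxysterols, among them an LXR ligand, had 2.18, 2.45 and 2.63 FPKM in NS-DADm 1, 2 and 3, against 4.25, 4.53 and 4.07 in WT 1, 2 and 3. Its groups were well separated (log2 fold change -0.80, SE 0.13, adjusted p = 0.0115, edgeR), and the call was lost without WT 2 (adjusted p = 0.0691, edgeR). The most abundant of that list, Hsd3b7 and Ebp, had log2 fold changes of 0.09 (adjusted p = 0.63, edgeR) and -0.09 (adjusted p = 0.758, edgeR).

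In the lipogenic pathway of SREBP-1c, 0 of 14 genes were called and 4 had an unadjusted p under 0.05, with a median log2 fold change of 0.32, and DESeq2 and limma also called 0. That median was 0.06 without NS-DADm 3, the library with the highest adipocyte sum and also the highest atrial sum. It was 0.12 with the adipocyte score as a covariate and 0.18 with the atrial score. Fasn, the fatty acid synthase gene, had 4.19, 3.16 and 13.16 FPKM in NS-DADm 1, 2 and 3, against 3.90, 3.14 and 4.47 in WT 1, 2 and 3 (log2 fold change 0.85, adjusted p = 0.334, edgeR). Elovl6, a fatty acid elongase gene, had 0.38, 0.24 and 2.71 FPKM in NS-DADm 1, 2 and 3, against 0.30, 0.28 and 0.44 in WT 1, 2 and 3 (log2 fold change 1.70, adjusted p = 0.287, edgeR). In both genes NS-DADm 3 was far above every other library, and the remaining NS-DADm samples overlapped the WT samples. Its most abundant genes were Me1, malic enzyme, at 0.05 (adjusted p = 0.69, edgeR) and Acacb, the carboxylase that limits fatty acid oxidation, at 0.12 (adjusted p = 0.422, edgeR). In uptake, trafficking and esterification of cholesterol, 0 of 20 tested genes were called and 7 had an unadjusted p under 0.05, with a median of 0.04, while DESeq2 called 1, the lipoprotein receptor gene Lrp1, higher, and limma at both pseudocounts called 1, the scavenger receptor gene Msr1, higher (adjusted p = 0.0336 and 0.0408, against 0.18 by edgeR). The fatty acid receptor Cd36 was at 0.04 (adjusted p = 0.832, edgeR) and the caveolar protein gene Cav1 at -0.10 (adjusted p = 0.418, edgeR). Among the paralogs of the 10 genes, 0 of 20 tested were called and 8 had an unadjusted p under 0.05, with a median of 0.01, and DESeq2 and limma called 0. Of 17 paralogs with a mean of at least 1 FPKM, 9 had a positive and 8 a negative log2 fold change. Abca7 and Lbp were higher in NS-DADm without overlap, at 0.41 (adjusted p = 0.0556, edgeR) and 0.59 (adjusted p = 0.195, edgeR). Abca2, Abca5, Abca8a, Abca8b and Mboat7 were lower in NS-DADm without overlap, at -0.19, -0.40, -0.24, -0.23 and -0.16 (adjusted p from 0.0903 to 0.29, edgeR). Abca3, Abca9, Abcg2, Apoc1, Srebf2, Lpcat1, Lpcat4, Mboat2, Scd2 and Scd4 overlapped between the groups. Of all tested genes, 8.94% were higher and 14.5% lower without overlap, and 18.1% had an unadjusted p under 0.05.

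**Figure D4:**
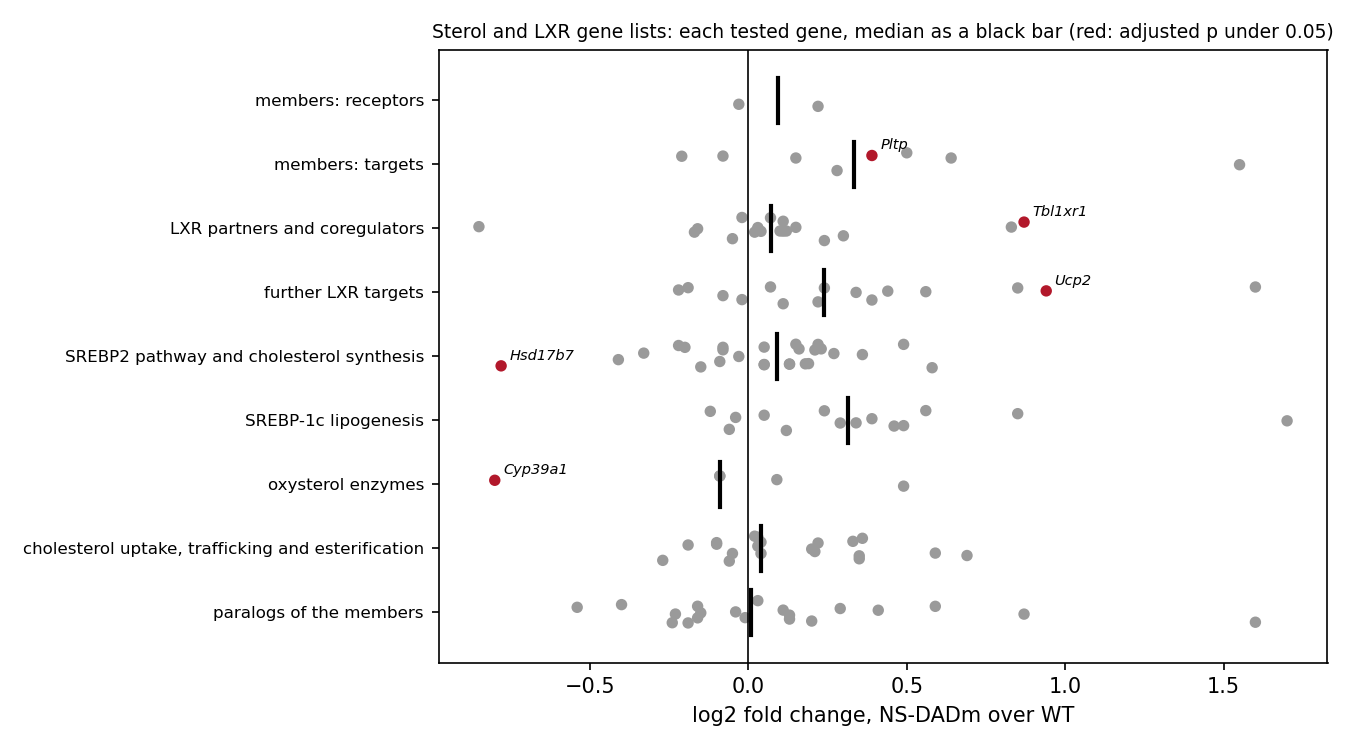
Log2 fold change, NS-DADm over WT (horizontal axis), of each tested gene in the receptor and target sets and in 7 related lists (rows, with vertical scatter for legibility), with the median as a black bar; red points with names are genes with an adjusted p under 0.05 (edgeR). The target set and the lipogenic list have medians of 0.34 and 0.32 (0.20 and 0.06 without NS-DADm 3), while the paralogs centre at 0.01, and each row has 0 or 1 red points.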

How the data were processed

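RNA was extracted from flash-frozen myocardium and libraries were built by the BGI protocol, per the labels' protocols. The submitters' processing notes name HISAT, with no version, and names of the estimator, genome build and annotation were not given in the sources used here. Per the file headers, expected counts are the reads the authors assigned to each gene or transcript, and FPKM are those counts scaled by the authors for feature length and library size. A gene not listed in a sample was taken as 0. Of the listed genes, 10.8% to 11.6% per sample had expected counts that were not whole.

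Expected counts were rounded, filtered with filterByExpr, scaled by TMM and tested by quasi-likelihood in edgeR 4.0.16 (R 4.3.3) over all 13130 genes and, separately, all transcripts, with Benjamini-Hochberg adjustment and a threshold of 0.05. Intervals use the t distribution of that fit and cover no adjustment for many genes. FPKM serve for levels only, save in the limma alternatives. DESeq2 1.42.0 and limma 3.58.1 on log2(FPKM + 1) and log2(FPKM + 0.1) were alternatives. The single row lacking a symbol was dropped. Counts of any 2 samples differed by more than sampling noise (chi-square per degree of freedom 3.5 to 17.9, near 1 for the same library).

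The members and gene lists were chosen with earlier results of these data known. The text names all members, the called genes and the 2 most abundant of each pathway list, paralogs of at least 1 FPKM and leading markers. Adipoq, Ucp1, Bmp10, Ryr2, Alb, Mertk, Lrp1, Col1a1, Nr0b2, Msr1, Fasn, Elovl6 and the called macrophage markers beyond 4 were named after their values were seen. Among markers of fibroblasts (8), endothelium (8) and Schwann cells (5 tested), 0 were called by edgeR, with 3, 1 and 3 at an unadjusted p under 0.05, and DESeq2 called 1, Col1a1, higher.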

Additional observations from a re-analysis of the deposited data

How the results depend on the processing

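The number of genes changed was 420, against 895 with a replicate block, 272 and 267 with limma on log2(FPKM + 1) and log2(FPKM + 0.1), 820 at an adjusted p of 0.1, and 117 to 382 when each sample was left out in turn. Of the 10 members 1 was called, against 2 with no low-count filter, 4 with the replicate block, 3 at an adjusted p of 0.1 (Abcg1, Apoe and Pltp), 0 to 1 without single samples, and 2 each with the atrial score as a covariate, the adipocyte score as a covariate, and the libraries split by atrial score as a block (the last pair chosen after seeing the data). Genes called in the pathway lists numbered 4, against 8 with no filter, 15 with the replicate block, 13 at an adjusted p of 0.1 and 2 to 6 without single samples. Transcripts changed numbered 17, against 2 with the replicate block, 858 with DESeq2, 34 and 39 with limma, and 3 to 7 without single samples.

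The log2 fold change of Pltp ran from 0.35 to 0.44 without single samples, with an adjusted p of 0.0325 to 0.127 (edgeR), and Pltp was called in 12 of 17 alternatives. Apoe was called in 7 of 17: with no filter (0.64), the replicate block (0.64), the atrial covariate (0.40), the adipocyte covariate (0.43), the atrial split (0.46) and without NS-DADm 2 or WT 3, within a range of 0.52 to 0.81 over single samples left out. Abcg1 (0.50) and Scd1 (1.17) were called with the replicate block, and in none of the other 16 of these alternatives, which keep the threshold of 0.05. The sign of Nr1h2 turned without NS-DADm 2 or WT 3 (range -0.08 to 0.04), and that of Mylip without NS-DADm 1 or WT 3 (range -0.20 to 0.14). The cause was not tested. Nr1h3, Abca1, Srebf1 and Lpcat3 kept their sign in all 17 alternatives and were called in 0. In the pathway lists, Ucp2 and Hsd17b7 were not called with limma either (adjusted p up to 0.0719 and 0.0564).

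The replicate numbers share no stated litter or day, so they were not taken to pair the samples. The deviations of same-numbered samples correlated at -0.07, 0.33 and 0.40 over genes. NS-DADm 2 correlated best with WT 2 and NS-DADm 3 with WT 3, while NS-DADm 1 correlated best with WT 3 (0.13). These correlations do not settle whether the samples were paired. Groups of 3 samples limit the precision of every fold change: the median standard error over all genes was 0.11 on the log2 scale, and Abcg1, with 75 to 165 counts, was limited by depth as well.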
